A study of Homo sapiens with 15 samples.

Results

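Caco-2 cells, an established line from a human colon carcinoma, were grown in the non-differentiated state and given fluid from a laboratory model of the colon in which gut bacteria had been fed 1% polydextrose or none. The comparison described here sets the 3 arrays of 1% polydextrose from vessels 2, 3 and 4 against the 3 arrays of 0% polydextrose from the same vessels, 6 of the 15 arrays of the series. Members were chosen by the array titles alone: all arrays of vessel 1 were left out, the vessel number was kept as a block, and where a gene had several probe sets, the one with the greatest average across all 15 arrays stood for it. A gene was tested if its log2 value was at least 5 in at least 3 of the 6 arrays, which left 8627 genes.

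In the model, 4 glass vessels were connected in sequence, and the labels assign vessel 2 to the transverse colon, vessel 3 to the descending colon, vessel 4 to the sigmoid colon and rectum, and vessel 1 to the ascending colon. Each simulation lasted 48 h with 0%, 1% or 2% polydextrose, a soluble glucose polymer that human enzymes digest poorly. Bacteria and debris were spun out, and the cells received the fluid at 10% by volume in serum-free medium for 24 h, so the 0% and 1% cells alike had no serum and had bacterial fluid. Cells in plain medium, in 100 mM NaCl and in 5 mM butyrate gave 1 array each. Every fluid was analysed as a single replica, and the labels name no second simulation, so the 3 vessels of a concentration belong to 1 chain of connected vessels. A difference between concentrations and a difference between simulations cannot be told apart, and p-values measure only the spread between these arrays.

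Bacteria of the colon turn fibres that escape digestion into short-chain fatty acids, chiefly acetate, propionate and butyrate, together with gases and other products. Butyrate is the main fuel of the colon lining and also an inhibitor of histone deacetylases, the enzymes that remove acetyl groups from histones. In colon cancer lines, added butyrate is known to slow division, to raise cyclin-dependent kinase inhibitors and to alter differentiation and inflammatory genes. What the fluids contained is not given in the sources used here.

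Epithelial identity was checked from 12 marker genes. Of these, 9 stood at log2 5 or more in all 6 arrays, among them EPCAM and KRT8, while VIL1, CDX1 and CDX2 stayed under 5. No marker of leukocytes (7 genes) or endothelium (6 genes) reached 5 in any of the 6 arrays, and of 10 fibroblast markers only COL1A1 did, at 6.35 to 7.29. The summed log2 level of the epithelial markers was 113.2 to 115 at 0% and 112.9 to 113.2 at 1%, that of the fibroblast markers 27.9 to 28.3 and 28.4 to 29.3, that of the leukocyte markers 16.3 to 16.4 and 16.2 to 16.8, and that of the endothelial markers 14.7 to 15.3 and 14.7 to 14.9. The 3′ minus 5′ difference of the ACTB control probe sets, a measure of RNA integrity, was 0.582 to 0.636 at 0% and 0.366 to 0.534 at 1%, and that of GAPDH was -0.112 to -0.095 and -0.08 to -0.064. Between 43.02% and 43.46% of genes reached log2 5 in each array. The ACTB and GAPDH values did not overlap between the concentrations, and their part in the results was not tested.

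In cells given the 1% fluids, 37 of 41 mitotic genes and 8 of 15 chemokines and cytokines fell, and 10 of 15 histone genes rose. Each of these counts was lower with any of the 6 arrays left out. CCN2 and immediate-early genes such as EGR3 and FOS rose as well. In all, 1131 genes, 13.1% of those tested, passed at an adjusted p under 0.05 (limma, Benjamini-Hochberg over all 8627 genes). Of these, 571 rose, which is 6.62% of the genes tested, and 560 fell, which is 6.49%. All 1131 had the same sign in each of the 3 vessels, and in 1112 of them the 3 values at 1% did not overlap the 3 at 0%, against 3230 such genes among all those tested. Genes that pass on these same arrays are likely to show both traits, so neither is separate evidence. Changes were mostly small: the median log2 difference was 0.46 for genes that rose and -0.48 for genes that fell, and 55 genes changed by 2-fold or more, 27 of them upward. By vessel, the median of the genes that rose was 0.39, 0.48 and 0.49 in vessels 2, 3 and 4, and that of the genes that fell was -0.44, -0.51 and -0.47. The count moved with single arrays: it was 431, 250 and 483 without the 0% array of vessel 2, 3 or 4, and 569, 619 and 239 without the 1% array of vessel 2, 3 or 4. Without the 2% array of vessel 4, which enters only the estimate of the spread, 368 genes rose. Of the genes called without a 0% or 1% array, at least 85.3% were among the 1131, and none of the 1131 changed sign.

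**Figure D1:**
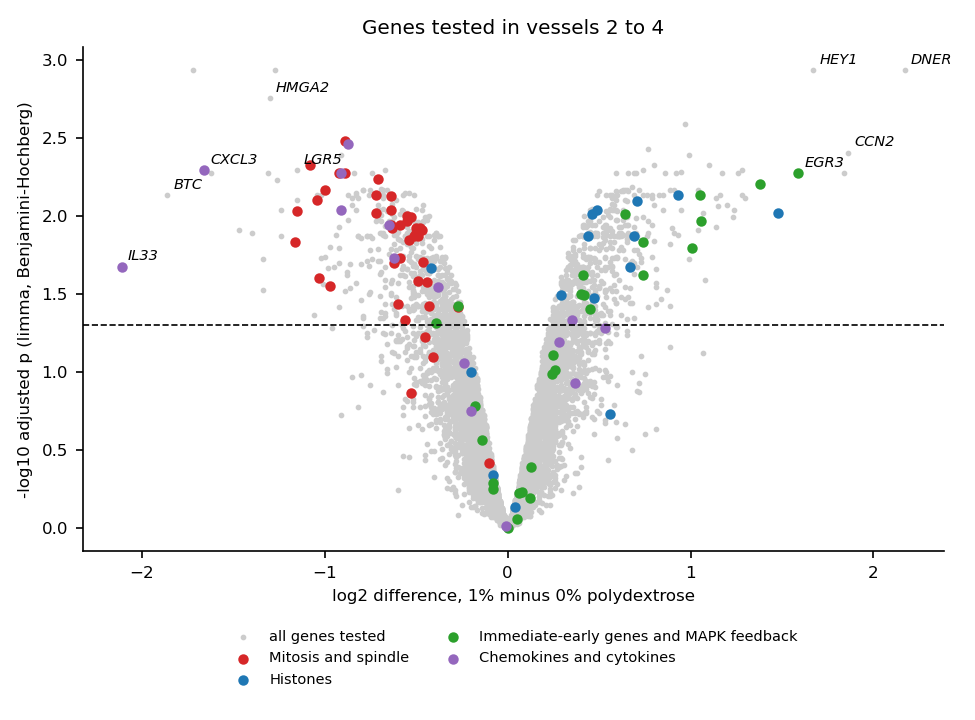
Each dot is a gene tested, with the log2 difference of 1% minus 0% polydextrose in vessels 2 to 4 on the x axis and -log10 of limma's adjusted p on the y axis; the dashed line marks an adjusted p of 0.05. Mitotic genes (red) lie on the left, with 37 of 41 above the line. Most histone genes (blue) lie on the right. Of the 15, 11 lie above the line, 10 on the right and 1 on the left.

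Cell division genes fell together in the cells given 1% fluid. On a list of genes for mitosis and the spindle, 37 of the 41 tested fell and none rose, and the median log2 difference was -0.59, against 0.00 for all genes tested. CCNB1 encodes cyclin B1, the partner of the kinase that starts mitosis. Its log2 value was 10.21, 10.26 and 10.24 in the 0% arrays of vessels 2, 3 and 4, and 9.2, 9.2 and 9.06 in the 1% arrays. All 3 values at 1% lay below all 3 at 0%, and the fitted difference was -1.08 ± 0.1 (SE; adjusted p = 0.00471). UBE2C, the ubiquitin-conjugating enzyme that works with the anaphase-promoting complex, went from 9.41, 9.41 and 9.57 to 8.5, 8.5 and 8.72 (-0.89 ± 0.07, adjusted p = 0.00329). KIF11, the kinesin that pushes spindle poles apart, went from 9.26, 9.43 and 9.28 to 8.5, 8.33 and 8.38 (-0.92 ± 0.09, adjusted p = 0.00529). HMMR, a spindle assembly protein, went from 9.44, 9.59 and 9.58 to 8.66, 8.71 and 8.56 (-0.89 ± 0.09, adjusted p = 0.00529). For these 4 genes the groups did not overlap, and each passed without any single one of the 6 arrays. The kinesin KIF20A, which acts in cytokinesis, fell from a mean of 7.81 ± 0.15 to 6.67 ± 0.23 (SD, n = 3), or 2.21-fold (adjusted p = 0.0093). Among members picked after their values were seen, CDK1, the mitotic kinase, fell by 0.72 (adjusted p = 0.00736) and AURKA, the kinase of spindle poles, fell by 1.04 (adjusted p = 0.00786), and both passed without any single array. The 4 members that did not pass had differences of -0.10 to -0.53: BUB3, CDC25C, KIF14 and KIFC1. The count of 37 was 21, 15 and 17 without the 0% array of vessel 2, the 0% array of vessel 3 or the 1% array of vessel 4, and between 26 and 32 without any other of the 6. In bulk RNA, fewer cells in mitosis and less RNA per cell cannot be told apart.

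Promoters of these genes are printed because the members moved together and many share short motifs. Of the 41 mitotic genes tested, 34 had a promoter in the RefSeq table (GRCh38.p14; 250 bases before to 50 after the start). The cell cycle homology region, searched as TTTGAA or TTCGAA on either strand, was present in 25 of the 34, or 73.5%, against 11.4% of the 7247 tested genes with a promoter and 16.6% of all 27305 RefSeq promoters. The letters CCAAT were present in 82.4%, against 38.0% of the tested genes, and both motifs in 67.6% against 5.04%. Over all genes that fell, 98 of the 466 with a promoter held TTTGAA or TTCGAA, and over all genes that rose, 26 of 456. The 150 bases directly before the start follow for 3 of these genes, with these motifs or their reverse complements in capitals.
CCNB1, chr5:69167000-69167149, plus strand: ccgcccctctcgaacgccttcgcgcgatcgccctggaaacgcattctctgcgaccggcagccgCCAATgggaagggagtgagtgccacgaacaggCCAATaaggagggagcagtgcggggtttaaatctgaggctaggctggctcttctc
KIF11, chr10:92592980-92593129, plus strand: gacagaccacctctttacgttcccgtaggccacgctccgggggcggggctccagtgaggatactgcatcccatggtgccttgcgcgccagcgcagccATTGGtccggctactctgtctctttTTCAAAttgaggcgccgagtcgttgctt
HMMR, chr5:163460482-163460631, plus strand: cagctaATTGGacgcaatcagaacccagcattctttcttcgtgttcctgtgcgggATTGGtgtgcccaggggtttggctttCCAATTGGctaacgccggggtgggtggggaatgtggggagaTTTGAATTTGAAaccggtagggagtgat
KIF11 and HMMR each hold TTTGAA, on one strand or the other, with its first base 28 bases before the start, and HMMR holds it again at 22 bases before. One CCAAT of HMMR overlaps its own reverse complement. In CCNB1 the window has CCAAT at 87 and 55 bases before the start and neither form of the homology region. A match is a description of the letters, not a measured binding site.

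Other lists of the dividing cell, and the lists after them, are read against the 13.1% of all tested genes that passed. Of 32 genes of the kinetochore and of condensin, the complex that compacts chromosomes, 9 fell and none rose (median -0.28). NUF2, a kinetochore subunit that holds microtubules, went from 8.39, 8.38 and 8.65 to 7.82, 7.66 and 7.89 (-0.68 ± 0.09, adjusted p = 0.00901). SMC4, a condensin subunit, went from 10.59, 10.75 and 10.78 to 10.18, 10.35 and 10.26 (adjusted p = 0.0101, and 0.0507 without the 1% array of vessel 4). The count of 9 was 3, 2 and 4 without the 0% array of vessel 2, 3 or 4, and 5, 6 and 1 without the 1% array of vessel 2, 3 or 4. In DNA replication, 4 of 43 fell and 1 rose, 11.6% of the list and near the share of all genes, with a median of -0.09. The members that fell included POLE3, a histone-fold subunit of a DNA polymerase (-0.63 ± 0.09, adjusted p = 0.00892), and MCM4, a part of the replicative helicase (-0.55 ± 0.11, adjusted p = 0.0218, and up to 0.0773 in the 5 fits with an array left out where it did not pass, all but that without the 0% array of vessel 4). Other tested probe sets of MCM4 had differences of -0.47 to -0.68, and none of them passed. PCNA, the sliding clamp of replication, was at 11.42, 11.37 and 11.35 and then 11.18, 11.22 and 11.23, a difference of -0.17 that did not pass (adjusted p = 0.156). Of 24 genes of nucleotide supply, 5 fell, among them TYMS, thymidylate synthase (-0.64 ± 0.09, adjusted p = 0.00908), and CTPS1, CTP synthase (-0.72 ± 0.09, adjusted p = 0.00736). With single arrays left out, the replication count of 4 was 1 to 3 and the nucleotide count of 5 was 2 to 6, both lowest without the 0% array of vessel 3. Of 23 genes of homologous recombination and Fanconi repair, 1 fell, or 4.35%, under the share of all genes: GEN1, a nuclease that cuts joined DNA molecules, went from 6.15, 6.37 and 6.39 to 5.4, 5.06 and 4.99 (adjusted p = 0.00909).

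Among 24 genes for G1 and S phase, 5 fell and none rose (median -0.21), 20.8% of the list beside 13.1% of all genes. CCNA2, cyclin A2, went from 8.59, 8.83 and 8.86 to 7.74, 8.04 and 7.78 (-0.91 ± 0.1, adjusted p = 0.00529). E2F3, a transcription factor of the S phase programme, fell from 7.48 ± 0.02 to 6.94 ± 0.06 (SD, n = 3; adjusted p = 0.0179), but passed only without the 1% array of vessel 3 (adjusted p up to 0.0782 otherwise). The count of 5 was 2 without the 0% array of vessel 3 or the 1% array of vessel 4 and 3 without the 0% array of vessel 2. CCND1, cyclin D1, was at 11.17, 11.2 and 10.72 and then at 11, 10.78 and 10.83; the groups overlapped and the difference of -0.16 did not pass (adjusted p = 0.411). MYC, a driver of growth, was lower by 0.32 (adjusted p = 0.0461), a call that was lost without each of the 6 arrays in turn (adjusted p 0.051 to 0.161). Of 41 genes of ribosome biogenesis, 6 fell and none rose (median -0.14), 14.6% of the list and near the 13.1% of all genes. LTV1, an assembly factor of the small subunit, led them (-0.63 ± 0.08, adjusted p = 0.00839). The count of 6 was 1 to 3 with any of the 6 arrays left out, lowest without the 0% array of vessel 3. None of 26 ribosomal protein genes passed in limma, and none had an unadjusted p under 0.05; their differences ran from -0.04 to 0.08. A probe set that the platform annotation assigns to RNA45SN5, a ribosomal RNA precursor, and whose specificity was not checked, rose from 8.33, 8.28 and 8.33 to 9.6, 9.5 and 9.52 (1.23 ± 0.18, adjusted p = 0.0102). That call was lost without the 0% array of vessel 3 (adjusted p = 0.0531).

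Histone genes rose. Of 15 tested, 10 rose and 1 fell, with a median log2 difference of 0.47, and in vessels 2, 3 and 4 the list's median was 0.33, 0.56 and 0.43. H4C8, a gene for histone H4, had 8.14, 7.37 and 8.2 at 0% and 9.21, 9.57 and 9.36 at 1%, or 2.79-fold more (1.48 ± 0.21, adjusted p = 0.00953). H2BC21, a gene for histone H2B, had 7.72, 7.57 and 7.76 at 0% and 8.57, 8.6 and 8.67 at 1% (0.93 ± 0.12, adjusted p = 0.00736). H1-2, a linker histone, went from 11.6, 11.41 and 11.67 to 12.13, 12.36 and 12.31 (0.71 ± 0.1, adjusted p = 0.00801). H2BC5 went from 10.75, 10.62 and 10.71 to 11.19, 11.23 and 11.11 (0.49 ± 0.07, adjusted p = 0.00909). None of these 4 overlapped between the groups, and all 4 passed without any single array of the 6. The member that fell was H2AX, the variant that marks DNA breaks (-0.42, adjusted p = 0.0215, over 0.05 in all fits with an array left out but that without the 0% array of vessel 4), and the variant genes H2AZ1, H2AZ2 and MACROH2A1 did not pass (-0.20, 0.04 and -0.08). The count of 10 was 6, 5 and 5 without the 0% array of vessel 2, the 0% array of vessel 3 or the 1% array of vessel 4. Histone genes are near-identical copies, so a probe set may read more than 1 of them.

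Replication-dependent histone genes have compact promoters. The 15 histone genes tested also include the variants H2AX, H2AZ1, H2AZ2 and MACROH2A1. Among all 15, TATAAA was present in 66.7% of the windows, against 5.08% of all tested genes, and CCAAT in 80.0% against 38.0%. TTTGCAT, part of the octamer element, was present in 46.7% against 2.48% (each on either strand). The 150 bases before the start are shown for the 3 histone genes with the lowest p, with these motifs or their reverse complements in capitals.
H2BC21, chr1:149886683-149886832, minus strand: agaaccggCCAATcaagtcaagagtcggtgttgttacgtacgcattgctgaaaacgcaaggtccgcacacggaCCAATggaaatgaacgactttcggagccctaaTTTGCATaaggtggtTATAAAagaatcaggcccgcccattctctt
H1-2, chr6:26056471-26056620, minus strand: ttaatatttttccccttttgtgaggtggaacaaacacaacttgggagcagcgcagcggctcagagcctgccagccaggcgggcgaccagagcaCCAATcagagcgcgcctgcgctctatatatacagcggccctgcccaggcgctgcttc
H2BC5, chr6:26157971-26158120, plus strand: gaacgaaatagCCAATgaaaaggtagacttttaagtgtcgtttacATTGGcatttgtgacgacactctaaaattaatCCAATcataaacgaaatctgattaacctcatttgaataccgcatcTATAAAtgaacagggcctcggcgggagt
TATAAA begins 30 bases before the start in H2BC21 and 28 bases before it in H2BC5.

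Of 40 chromatin regulators, 7 fell, 1 rose and 32 did not pass, with a median of -0.03. The share that passed was 20%, beside 13.1% of all genes tested. HMGA2, an architectural DNA-binding protein of embryonic and tumour cells, had 7.79, 7.89 and 7.62 at 0% and 6.45, 6.51 and 6.44 at 1%, a 2.46-fold fall (-1.3 ± 0.09, adjusted p = 0.00176). HMGB2, a DNA-bending protein, fell from 11.52 ± 0.11 to 10.84 ± 0.07 (SD, n = 3; adjusted p = 0.0133, and up to 0.0641 without the 0% array of vessel 3 or the 1% array of vessel 4). The count of 7 was 4, 2 and 4 without the 0% array of vessel 2, 3 or 4, and 3, 3 and 1 without the 1% array of vessel 2, 3 or 4. HMGA2 was also the first of 3 members that fell among 5 oncofetal and let-7 genes, with DICER1, which makes microRNAs (-0.59, adjusted p = 0.0142), and IGF2BP3, an RNA-binding protein (-0.36, adjusted p = 0.0264). DICER1 lost its call without the 0% array of vessel 2 or 3 or the 1% array of vessel 4, and IGF2BP3 without any array but the 1% array of vessel 3 (adjusted p up to 0.0675 and 0.103). Of 24 histone deacetylase and acetyltransferase genes, 4 rose and none fell, 16.7% of the list beside 13.1% of all genes tested. The list's median was -0.03, and 14 of the 24 differences were below 0. The 4 were HDAC5 (0.67), SIRT2 (0.65), SIRT7 (0.32) and HDAC3 (0.27), with adjusted p of 0.0147 to 0.0499. Each of these 4 calls was lost without at least 3 of the 6 arrays, among them the 0% arrays of vessels 3 and 4 and the 1% array of vessel 4 (adjusted p up to 0.158). A list of 14 genes known from other work to respond to deacetylase inhibitors had 3 that rose and 1 that fell (median 0.17). That is 28.6% of the list, but the 3 include DHRS2, whose call was favoured by the filter. DHRS2, a reductase on that list, stood at 4.6, 3.82 and 3.95 at 0%, under the level of 5, and at 6.24, 6.06 and 5.6 at 1%. Against log2 5 this is a difference of at least 0.97. DHRS2 entered the test only through the 1% arrays, where it was high, so no fitted difference is given.

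Brakes on the cell cycle and immediate-early genes were among the genes that rose. Of 22 growth arrest and p53 target genes, 7 rose and 1 fell (median 0.26), 36.4% of the list beside 13.1% of all genes. CDKN1C, the cyclin-dependent kinase inhibitor p57, had 9.19, 9.18 and 9.08 at 0% and 10.04, 10.14 and 10.26 at 1%, or 1.99-fold more (0.99 ± 0.09, adjusted p = 0.00406). CDKN1A, which encodes p21, had 10.37, 10.35 and 10.3 at 0% and 10.71, 10.78 and 10.98 at 1% (0.48 ± 0.09, adjusted p = 0.0196). Its groups did not overlap, but the call was lost without the 0% array of vessel 3 or 4 or the 1% array of vessel 4 (adjusted p up to 0.0844). CDKN1B, which encodes p27, fell instead, from 10.55, 10.55 and 10.72 to 10.15, 10.09 and 10.13 (-0.49 ± 0.08, adjusted p = 0.0128). PPM1D, a phosphatase that p53 induces (0.42), and GADD45B, a stress sensor (0.46), each rose at an adjusted p of 0.0114. The count of 7 was 1 without the 0% array of vessel 3 and 1 without the 1% array of vessel 4, where CDKN1B, PPM1D and GADD45B were also lost (adjusted p up to 0.0624, 0.055 and 0.0534).

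Immediate-early genes are transcription factors and feedback phosphatases that growth factors and stress switch on without new protein synthesis. Of 27 tested, 12 rose and 2 fell (median 0.25), 51.9% of the list beside 13.1% of all genes. EGR3, a zinc-finger factor, had 7.83, 7.57 and 7.96 at 0% and 9.26, 9.56 and 9.31 at 1%, or 3.01-fold more (1.59 ± 0.17, adjusted p = 0.00529). FOS, a subunit of the AP-1 factor, had 7.32, 7.05 and 7.35 at 0% and 8.49, 8.71 and 8.65 at 1% (1.38 ± 0.15, adjusted p = 0.00625). NR4A1, an orphan nuclear receptor, went from 6.91, 6.83 and 6.86 to 7.7, 7.96 and 8.1 (1.05 ± 0.13, adjusted p = 0.00736). In all 3 genes the lowest 1% array lay above the highest 0% array. KLF2 rose by 0.64 (adjusted p = 0.00975, and 0.0507 without the 1% array of vessel 4), and DUSP1, a phosphatase that switches MAP kinases off and was picked after its value was seen, rose by 1.06 (adjusted p = 0.0107, and passed without any single array). ATF3, a stress-induced factor, was less even at 0%, with 10.53, 10.32 and 11.26, against 11.47, 11.84 and 11.84 at 1% (1.01 ± 0.18, adjusted p = 0.0159). ATF3 lost its call without the 0% array of vessel 2 or any of the 1% arrays (adjusted p up to 0.055). The count of 12 was 7, 6 and 8 without the 0% array of vessel 2, 3 or 4, and 6, 5 and 6 without the 1% array of vessel 2, 3 or 4.

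**Figure D2:**
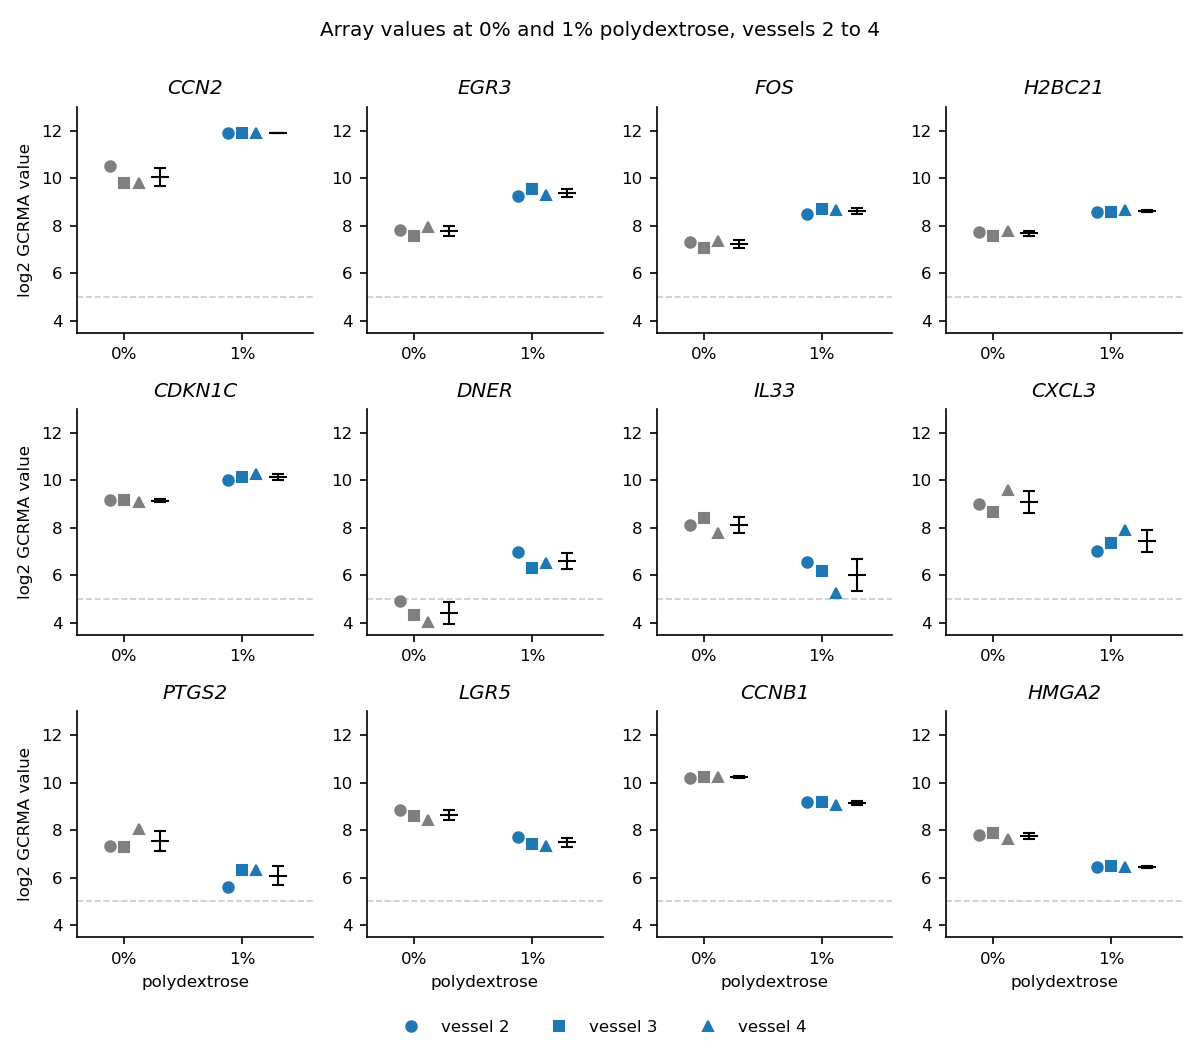
Log2 GCRMA values of 12 genes in the 6 arrays, 0% in grey and 1% in blue, with the vessel given by the symbol; the black bar is the mean and its whiskers 1 SD (n = 3), and the dashed line is log2 5. For all 12 genes, the 3 values at 1% lie wholly above or wholly below the 3 values at 0%.

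Of 15 chemokines and cytokines tested, 8 fell and 1 rose, with a median of -0.38. The share that passed was 60%, beside 13.1% of all genes tested. CXCL3, a chemokine that draws neutrophils, had 9.0, 8.69 and 9.62 at 0% and 7.01, 7.38 and 7.93 at 1%, a 3.16-fold fall (-1.66 ± 0.16, adjusted p = 0.00507). Its relatives CXCL2 (-0.91 ± 0.13, adjusted p = 0.00908) and CXCL5 (-0.91 ± 0.1, adjusted p = 0.00529) fell as well, CXCL5 from 12.71, 12.78 and 12.85 to 11.93, 11.73 and 11.97. LIF, a cytokine of the interleukin-6 family, had 6.25, 6.28 and 6.61 at 0% and 5.27, 5.51 and 5.76 at 1% (-0.87 ± 0.07, adjusted p = 0.00344). Not every member moved this way: CXCL8, the best known neutrophil chemokine, did not pass (-0.01, adjusted p = 0.964), and CCL20, which attracts lymphocytes and dendritic cells, rose by 0.35 (adjusted p = 0.0463, over 0.05 without each of the 6 arrays, 0.149 at most). Both were picked after their values were seen. IL33, an alarmin of epithelial nuclei, had the largest fall of all genes tested, from 8.13, 8.44 and 7.77 to 6.57, 6.18 and 5.26 (-2.11 ± 0.42, adjusted p = 0.0211), and also a wide spread at 1%. It passed in only 2 of the 6 fits with an array left out: the adjusted p reached 0.0931 at most and was over 0.05 without any 0% array and without the 1% array of vessel 4. The count of 8 was 5 without the 0% array of vessel 2, the 0% array of vessel 3 or the 1% array of vessel 4. It was 6 without any other of the 6.

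PTGS2, the inducible cyclooxygenase that starts prostaglandin synthesis, had 7.33, 7.3 and 8.03 at 0% and 5.62, 6.32 and 6.32 at 1%. The groups did not overlap, and the fall was 2.77-fold (-1.47 ± 0.24, adjusted p = 0.0123); the adjusted p was above 0.05 without the 0% array of vessel 3 or the 1% array of vessel 4 (0.0576 at most). It was the single gene to pass of 11 in prostaglandin synthesis and reception, 9.09% of the list and under the 13.1% of all genes. Of 15 NF-kB regulators, 1 passed, 6.67% of the list and also under the share of all genes. It was CYLD, a deubiquitinase that restrains the pathway, which rose from 7.03, 6.92 and 7.09 to 7.69, 7.87 and 7.78 (adjusted p = 0.00736). Another tested CYLD probe set had a difference of opposite sign that did not pass. Of 23 interferon-stimulated genes, 4 rose and 2 fell, 26.1% of the list, and 1 or 2 rose with any of the 6 arrays left out. IRF7, a master factor of the interferon response, led them (0.64 ± 0.07, adjusted p = 0.00684). APOBEC3G, a cytidine deaminase that restricts retroviruses and was not on that list, fell from 6.94, 6.89 and 7.52 to 5.81, 5.93 and 5.6 (-1.34 ± 0.25, adjusted p = 0.0189). It kept its call in 2 of the 6 fits and lost it without the 0% array of vessel 3 or 4 or the 1% array of vessel 2 or 4 (adjusted p up to 0.0804). Outside the naming rule, IL20RA, a receptor chain for cytokines of the interleukin-10 family, was among the genes with the lowest adjusted p, at 6.92, 6.7 and 6.69 against 4.99, 5.01 and 5.15 (-1.72 ± 0.1, adjusted p = 0.00116), and passed without any single array.

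Ligands and regulators of growth were split. CCN2, also called connective tissue growth factor and a standard target of YAP, had 10.5, 9.82 and 9.82 at 0% and 11.9, 11.91 and 11.91 at 1%, a 3.63-fold rise (1.86 ± 0.16, adjusted p = 0.00392). The related CCN1 rose from 11.65 ± 0.3 to 12.41 ± 0.08 (SD, n = 3; adjusted p = 0.0128, and up to 0.0624 without the 0% array of vessel 3 or the 1% array of vessel 4). YAP1 itself fell, from 10.87, 11.03 and 10.89 to 10.44, 10.14 and 10.33 (-0.63 ± 0.09, adjusted p = 0.00975). In the list of 15 YAP and CCN targets, 4 rose and 3 fell, against 1 and 1 without the 0% array of vessel 3 or the 1% array of vessel 4. The share that passed was 46.7%, beside 13.1% of all genes tested. Of 8 EGF family ligands and receptors, 2 fell: EREG, epiregulin, from 12.57, 12.8 and 12.84 to 12.03, 11.86 and 12.08 (-0.75 ± 0.09, adjusted p = 0.00685), and BTC, betacellulin, from 5.67, 5.62 and 5.56 to 3.29, 4.15 and 3.83. The share of the list that passed was 25%, beside 13.1% of all genes tested. BTC entered the test only through its 0% arrays, where it was high, so its place in the count of 2 is a description. Since BTC ended under log2 5, its difference is given as at least 0.62, with no fitted value. Of 24 genes of TGF-beta and BMP signalling, 2 fell and none rose, 8.33% of the list and under the 13.1% of all genes. They were ID1 (-0.59, adjusted p = 0.0366) and TGFB2 (-0.92, adjusted p = 0.0381). ID1 kept its call only without the 0% array of vessel 4, and TGFB2 in none of the 6 fits with an array left out (adjusted p up to 0.106 and 0.149).

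Of 17 Wnt target and stem cell genes, 5 fell, none rose and 12 did not pass, with a median of -0.29. The share that passed was 29.4%, beside 13.1% of all genes tested. LGR5, the R-spondin receptor that marks crypt base stem cells, had 8.87, 8.58 and 8.45 at 0% and 7.71, 7.41 and 7.33 at 1%, a 2.22-fold fall (-1.15 ± 0.11, adjusted p = 0.00507). ASCL2, a transcription factor of the same cells, had 7.47, 7.64 and 7.48 at 0% and 6.68, 6.42 and 6.44 at 1% (-1.02 ± 0.13, adjusted p = 0.00736). Both fell in each vessel with no overlap, and both passed without any single array. CD44, the hyaluronan receptor, fell by 0.59 (adjusted p = 0.0159, and 0.0563 without the 1% array of vessel 4). Another tested CD44 probe set passed at -0.45, and the others had differences of -0.06 to -0.32 that did not pass. TNFRSF19 fell by 0.57 (adjusted p = 0.0238, over 0.05 without each of the 6 arrays, 0.0971 at most). The count of 5 was 4 without the 0% array of vessel 4, 2 without the 1% array of vessel 4 and 3 without any other of the 6.

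Of 17 Notch pathway genes, 4 rose and 1 fell, 29.4% of the list beside 13.1% of all genes. The 4 include DNER, which entered the test only through its 1% arrays, where it was high. HEY1, a repressor that Notch induces, had 5.2, 5.32 and 5.08 at 0% and 6.56, 7.15 and 6.89 at 1%, or 3.17-fold more (1.67 ± 0.1, adjusted p = 0.00116). DNER, a transmembrane protein with EGF repeats that binds Notch, had 4.94, 4.33 and 4.03 at 0%, all under 5, and 6.99, 6.31 and 6.52 at 1%, a difference of at least 1.61 against log2 5, again with no fitted value. HES7, another repressor of the pathway, rose by 0.61 (adjusted p = 0.0128). The ligand JAG1 fell from 10.94 ± 0.03 to 10.57 ± 0.05 (SD, n = 3; adjusted p = 0.0135). HES7 and JAG1 lost their calls without the 0% array of vessel 3 or the 1% array of vessel 4, and JAG1 also without the 0% array of vessel 2 (adjusted p up to 0.0587 and 0.0641).

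In a test against a minimum change of 1.5-fold, 6 of the 8627 genes passed, and the 5 of them that the naming rule covers were DNER, which entered the test only through its 1% arrays, HEY1, CCN2, HMGA2 and SLC6A20. SLC6A20, a transporter of proline and other imino acids, had 6.94, 6.9 and 6.71 at 0% and 5.62, 5.5 and 5.61 at 1% (-1.27 ± 0.08, adjusted p of 0.00116 against no change and 0.0442 against 1.5-fold).

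Other genes were among the 12 largest rises and falls, most of them on no list. WDR19, a carrier subunit of cilium transport, rose from 5.62, 5.98 and 5.96 to 7.17, 7.14 and 7.07 (1.28 ± 0.12, adjusted p = 0.00507). RAB24, a small GTPase linked to autophagy, had nearly identical values within each concentration, 7.14, 7.19 and 7.23 against 8.47, 8.41 and 8.45 (1.26 ± 0.13, adjusted p = 0.00529). VWA5A (1.17), ARL14 (1.16) and OSBPL6 (1.15), a protein of the family that binds oxysterols, rose at adjusted p of 0.00529 to 0.00868. SPRR1A, on the list of cornified envelope genes as a precursor of the cornified envelope of squamous epithelia, rose from 7.25, 6.95 and 7.28 to 8.16, 8.26 and 8.35 (1.1 ± 0.1, adjusted p = 0.00471). On the falling side, TMEM52B went from 9.41, 9.34 and 9.39 to 8.26, 8.18 and 7.91 (-1.26 ± 0.14, adjusted p = 0.00588). DOCK8, an exchange factor for the GTPase CDC42, had 7.06, 7.03 and 6.82 at 0% and a wide 6.29, 5.05 and 5.88 at 1% (-1.24 ± 0.21, adjusted p = 0.0134). Another tested DOCK8 probe set had a difference of -0.48 that did not pass. BORA, an activator of the Aurora A kinase and on the mitosis list, fell by 1.16 (adjusted p = 0.0147, over 0.05 without the 0% array of vessel 3 or 4, 0.0678 at most).

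Across the level of log2 5, 20 genes that passed had all 3 arrays below it at 0% and all 3 at or above it at 1%, and 25 had the reverse. Such genes entered the test only through the concentration where they were high and so had to differ; their counts are a description, and each is given by its bound against log2 5. After DNER and DHRS2, the largest bounds for genes higher at 1% were those of C17orf67 (at least 0.80), DLX2, a homeobox factor (at least 0.64), and CEP131, a centriolar satellite protein (at least 0.51). The largest bounds for genes lower at 1% were those of PPP1R14D (-1.12), SERPINH1, the collagen chaperone HSP47 (-0.87), BCL2L15 (-0.66), BTC (-0.62) and GSAP (-0.61). SERPINH1 was at 5.79, 6.15 and 5.66 at 0% and at 4.03, 4.22 and 4.48 at 1%. With single arrays left out, PPP1R14D lost its call without each of the 6, CEP131 without any but the 0% array of vessel 2, and GSAP without the 0% array of vessel 3 or the 1% array of vessel 4 (adjusted p up to 0.122, 0.149 and 0.0641).

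**Figure D3:**
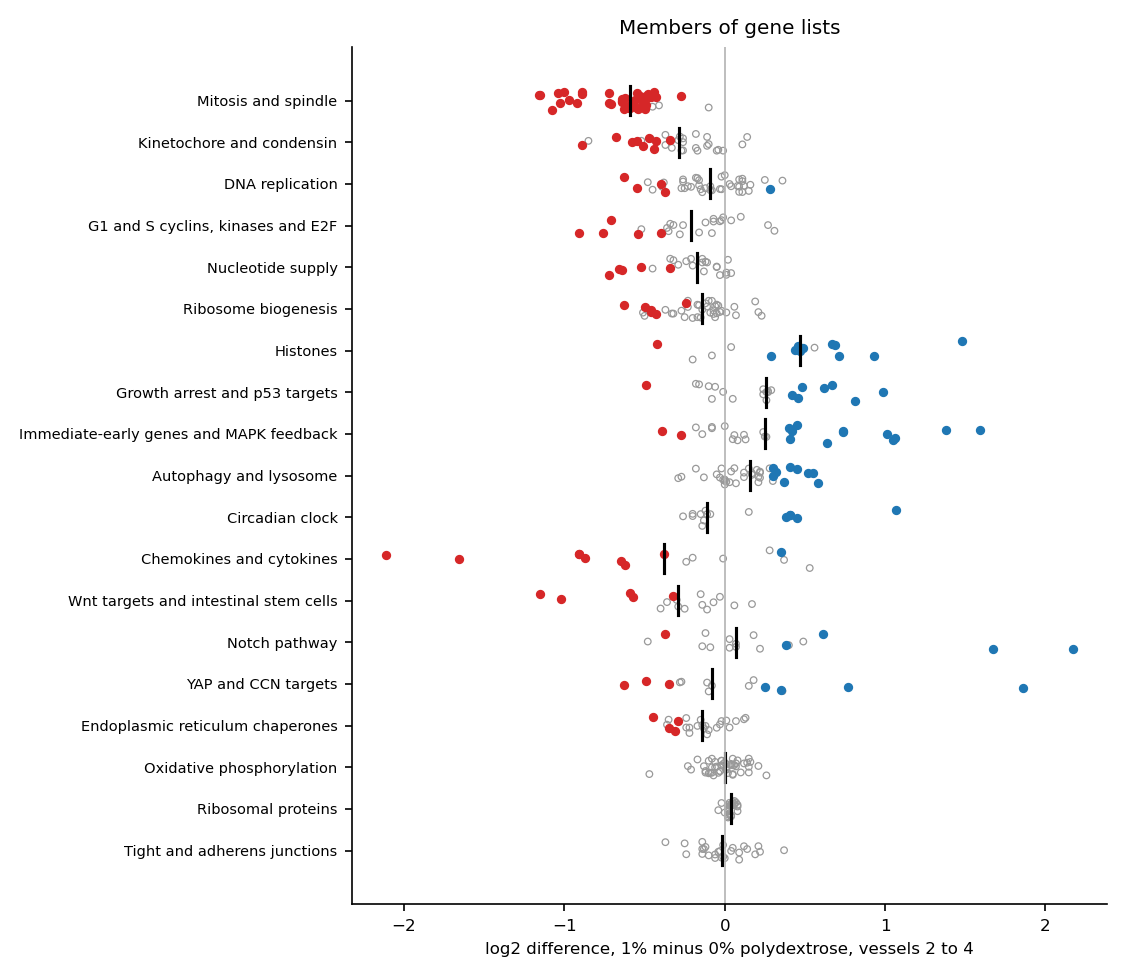
Each circle is a tested member of the list named on the y axis, at its log2 difference of 1% minus 0% polydextrose in vessels 2 to 4; filled blue circles rose, filled red circles fell, open circles did not pass, and the black tick is the list's median. The median of the mitosis list is -0.59 and that of the histone list 0.47, and the circles of the ribosomal protein list lie between -0.04 and 0.08.

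In the ATF4 response to amino acid shortage, 3 of 23 genes rose and none fell, about the share of all genes that passed: DDIT3, which encodes the stress factor CHOP (0.81, adjusted p = 0.0283), SESN2, an inhibitor of mTORC1 (0.81, adjusted p = 0.0269), and CHAC1, which degrades glutathione (0.62, adjusted p = 0.0157). DDIT3 had 10.75, 10.49 and 11.3 at 0% and 11.4, 11.86 and 11.7 at 1%, so that the 0% array of vessel 4 lay only 0.1 below the lowest 1% array on the log2 scale. These 3 calls were lost in 4, 5 and 4 of the 6 fits with an array left out (adjusted p up to 0.0842, 0.094 and 0.0741), each among them without the 1% arrays of vessels 3 and 4. Of 25 endoplasmic reticulum chaperone genes, 4 fell and none rose (median -0.14), 16% of the list beside 13.1% of all genes. Among them were XBP1, the factor of the unfolded protein response (-0.45, adjusted p = 0.0412), and PDIA3, a disulfide isomerase (-0.31, adjusted p = 0.0341). With any of the 6 arrays left out, at most 1 gene of that list fell, and PDIA3 never did (adjusted p up to 0.138 for XBP1 and 0.13 for PDIA3). Other tested probe sets of PDIA3 had differences of -0.22 and 0, and neither passed. Of 15 heat shock genes, 3 fell and 1 rose, 26.7% of the list. The count of 3 was 1, 1 and 2 without the 0% array of vessel 2, 3 or 4. It was 1, 2 and 0 without the 1% array of vessel 2, 3 or 4. DNAJB1, a partner of HSP70, rose (0.61, adjusted p = 0.0164, over 0.05 without the 0% array of vessel 3 or 4 or the 1% array of vessel 2 or 4, 0.077 at most). Of 25 NRF2 target genes, 2 passed, 8% of the list and under the 13.1% of all genes. HMOX1, heme oxygenase, rose 2.06-fold, from 9.53, 9.17 and 9.19 to 10.18, 10.47 and 10.37 (adjusted p = 0.00684). ABCC3, an export pump, fell (-0.64, adjusted p = 0.032, over 0.05 without each of the 6 arrays, 0.103 at most). The other 23 did not pass.

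None of 49 oxidative phosphorylation genes passed in limma, where 7 had an unadjusted p under 0.05, and the median was 0.00. None of 30 proteasome genes passed either, with 3 at an unadjusted p under 0.05. Of 27 genes of fatty acid oxidation, 1 rose and 2 fell; CPT1A, the gate of fatty acids into mitochondria, was at 9.08, 8.86 and 8.93 and then 9.12, 9.09 and 9.18 and did not pass (0.17, adjusted p = 0.203). BDH1 and OXCT1, enzymes of ketone body metabolism, were the members that fell (-0.59 and -0.33, adjusted p = 0.0361 and 0.0481). In glucose transport, SLC2A3 rose (0.53, adjusted p = 0.0135) and SLC2A1 fell (-0.50, adjusted p = 0.0365). Of 16 genes of fatty acid and triglyceride synthesis 1 rose and 1 fell, and of 19 of cholesterol synthesis 2 rose: IDI1 (0.33) and SC5D (0.25). The TCA cycle list had 1 rise and 1 fall among 26, and the hypoxia list 1 of each among 17. In these 5 lists of fatty acids, sterols, the TCA cycle and hypoxia, 7.69% to 12.5% passed, near the 13.1% of all genes. Leaving out arrays removed the calls of SLC2A1 in all 6 fits and of SLC2A3 without the 1% array of vessel 4 (adjusted p up to 0.137 and 0.0584). BDH1 passed only without the 0% array of vessel 4 and IDI1 only without the 1% array of vessel 3, and OXCT1 and SC5D passed in none of these fits (adjusted p up to 0.13, 0.133, 0.17 and 0.148).

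Transporters and channels of the epithelium changed in both directions. Of 18 genes of ion and chloride transport, 2 rose and 2 fell, 22.2% of the list beside 13.1% of all genes. AQP3, a water and glycerol channel, had 11.29, 11.25 and 10.8 at 0% and 12.05, 11.98 and 11.97 at 1% (0.89 ± 0.1, adjusted p = 0.00685). CA2, carbonic anhydrase 2, rose from 9.3 ± 0.11 to 9.89 ± 0.04 (SD, n = 3; adjusted p = 0.00767). KCNE3, a potassium channel subunit that supports chloride secretion, had 8.99, 9.06 and 9.21 at 0% and 8.27, 7.82 and 8.19 at 1% (-0.99 ± 0.11, adjusted p = 0.00668), and SCNN1A, a subunit of the sodium channel ENaC, fell by 0.69 (adjusted p = 0.0228). Of 18 amino acid and peptide transporters, 5 fell, SLC6A20 first, and 1 rose, 33.3% of the list. The count of 5 was 1 to 3 with any of the 6 arrays left out. ALDH3A1, an aldehyde dehydrogenase that detoxifies lipid aldehydes, had 9.1, 8.63 and 8.72 at 0% and 7.65, 7.34 and 7.52 at 1%, a 2.49-fold fall (-1.31 ± 0.14, adjusted p = 0.00529). MGST1, a microsomal glutathione transferase, fell by 0.67 (adjusted p = 0.00507). Of 4 genes of butyrate and monocarboxylate transport that were tested, 1 passed, 25% of the list: SLC16A4 fell (-0.34, adjusted p = 0.0281). SCNN1A passed only without the 1% array of vessel 2 and SLC16A4 only without the 0% array of vessel 2 (adjusted p up to 0.0961 and 0.115), while AQP3, CA2, KCNE3, ALDH3A1 and MGST1 passed in all 6.

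In the following lists of epithelial structure, most genes that passed fell, and the list medians ran from -0.38 to -0.02. None of 27 genes of tight and adherens junctions passed in limma, with 7 at an unadjusted p under 0.05 and differences of -0.37 to 0.37. Of 9 brush border and enterocyte genes tested, 3 fell, with EPS8L3, a microvillus protein, first (-0.83 ± 0.1, adjusted p = 0.00717), and 1 rose. That is 44.4% of the list, and the count of 3 was 1 or 2 with any of the 6 arrays left out. CDH17, the liver-intestine cadherin, fell from 8.94 ± 0.13 to 8.4 ± 0.18 (SD, n = 3; adjusted p = 0.0333), a call lost without each of the 6 arrays (adjusted p 0.0511 to 0.101). Of 6 tested mucin, goblet and enteroendocrine genes, 2 fell, 33.3% of the list. They were CADPS, which primes secretory vesicles (-1.4 ± 0.23, adjusted p = 0.0129), and TFF3, the trefoil factor of goblet cells (-0.55 ± 0.1, adjusted p = 0.0152). Both lost their calls without the 1% array of vessel 4 (adjusted p up to 0.0542 and 0.0681), and TFF3 also without the 0% array of vessel 2 or 3 or the 1% array of vessel 2. Among 17 collagens, laminins and integrins, ITGB5 alone passed and fell (-0.6, adjusted p = 0.0127, and 0.053 without the 1% array of vessel 4). That is 5.88% of the list, under the 13.1% of all genes.

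Of 38 autophagy and lysosome genes, 9 rose, none fell and 29 did not pass, with a median of 0.16. The share that passed was 23.7%, beside 13.1% of all genes tested. MAP1LC3B, the ubiquitin-like protein of the autophagosome membrane, had 11.76, 11.69 and 11.93 at 0% and 12.21, 12.41 and 12.4 at 1% (0.55 ± 0.08, adjusted p = 0.0093). The autophagy receptor NBR1 (0.45, adjusted p = 0.0159) and the lysosomal cholesterol transporter NPC1 (0.52, adjusted p = 0.0136) rose as well, each in all 3 vessels. MAP1LC3B passed without any single array, but the list's count of 9 was 2, 1 and 3 without the 0% array of vessel 2, 3 or 4 and 5, 5 and 2 without the 1% array of vessel 2, 3 or 4, and NBR1 and NPC1 passed in 2 and 1 of those fits (adjusted p up to 0.0627 and 0.0666). Of 15 circadian clock genes, 5 rose and none fell, 33.3% of the list. However, 9 of the 15 differences were below 0 and the median was -0.11. BMAL1, the partner of CLOCK, had 7.86, 7.74 and 8.39 at 0% and 8.74, 9.31 and 9.14 at 1% (1.07 ± 0.16, adjusted p = 0.00958). NFIL3 (0.45) and DBP (0.41), which act on shared promoter sites, both rose at adjusted p of 0.0127 and 0.0135; NFIL3 lost its call without the 0% array of vessel 3 or the 1% array of vessel 4, and DBP without the 0% array of vessel 2 or 4 or the 1% array of vessel 4 (up to 0.0598 and 0.0667). The clock count of 5 was 1 to 3 with any of the 6 arrays left out, lowest without the 1% array of vessel 4. Of 26 pro-apoptotic genes, 23.1% passed. Among them 3 rose, with CASP9, the initiator caspase of the mitochondrial pathway (0.54, adjusted p = 0.00736), and BIK, which opposes BCL2 (0.58, adjusted p = 0.00848), and 3 fell. The latter count was 2 without the 1% array of vessel 3, and none of the list fell without any other of the 6 arrays. BIRC5, survivin, which acts in mitosis and against caspases, fell from 8.16 ± 0.16 to 7.12 ± 0.08 (SD, n = 3; adjusted p = 0.025, up to 0.104 in the 5 fits with an array left out where it did not pass, all but that without the 0% array of vessel 4).

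The direct effect of butyrate on the same cells was available from arrays that this comparison does not share: 1 array of 5 mM butyrate and 1 of plain medium. With 1 array each there is no test, and values are given as measured. Of the 571 genes that rose with 1% fluid, 424, or 74.3%, were at least 1 log2 unit higher in butyrate than in medium, against 15.6% of all 8627 genes, and 2 were at least 1 unit lower. Of the 560 that fell, 395, or 70.5%, were at least 1 unit lower, against 14.4% of all genes, and 4 were at least 1 unit higher. The median butyrate minus medium difference was 1.51 over the genes that rose, -1.50 over those that fell and 0.02 over all genes tested. In the NaCl array the corresponding medians over medium were 0.35 and -0.33. Single genes are given in medium, NaCl and butyrate in turn. DHRS2 was at 1.82, 1.75 and 9.79, and IL33 at 9.04, 8.64 and 2.7, so for both the NaCl array lay near medium. CDKN1C was at 5.98, 9.45 and 11.13, H2BC21 at 3.86, 7.19 and 9.67, and CXCL3 at 11.68, 8.36 and 4.98. For these 3 genes the NaCl array also lay over 3 log2 units from medium, on the same side as butyrate. CHAC1, which rose with 1% fluid, was at 8.19, 7.5 and 6.34, and DDIT3, which also rose, at 9.31, 6.86 and 8.41. The mitosis list had a median of -2.10 for butyrate minus medium and -0.40 for NaCl minus medium, DNA replication -1.23 and -0.88, histones 2.29 and 1.14, and ribosomal proteins 0.00 and 0.02.

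The arrays of 2% polydextrose share the 0% arrays with this comparison, so their values are only set alongside. The median difference of 2% minus 0% was 0.59 over the genes that rose with 1% and -0.67 over those that fell. CCNB1 was at 8.55, 8.32 and 8.67 in the 2% arrays of vessels 2, 3 and 4, below the 9.06 to 9.2 of the 1% arrays. DNER was at 8.06, 7.84 and 7.42, above the 6.31 to 6.99 of the 1% arrays. H1-2 was at 12.26, 12.23 and 12.18, within the range of the 1% arrays.

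**Figure D4:**
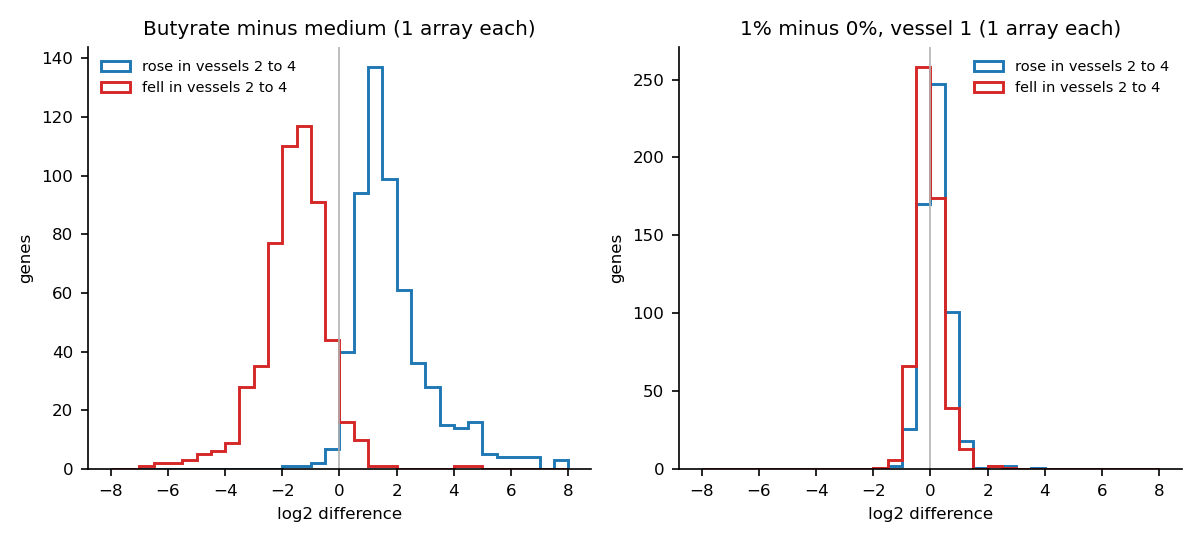
Histograms of the 571 genes that rose (blue) and the 560 that fell (red) with 1% polydextrose in vessels 2 to 4, by their log2 difference of butyrate minus medium (left) and of 1% minus 0% in vessel 1 (right), with the number of genes on the y axis. On the left the median is 1.51 for the blue and -1.50 for the red genes; on the right it is 0.17 and -0.10.

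Vessel 1, which the labels assign to the ascending colon, was left out of the comparison and gave 1 array at each concentration. There the genes that rose in vessels 2 to 4 had a median difference of 0.17, and 370 of the 571, or 64.8%, were higher at 1%, against 54.0% of all genes. The genes that fell had a median of -0.10, and 335 of the 560, or 59.8%, were lower, against 45.8% of all genes. The difference between the vessels was tested in a fit on the 12 fermentation arrays, in which the arrays of vessel 1 are assumed to vary like the others. It passed for 327 genes, 3.79% of those tested, and 142 of these were among the 1131, which are 13.1% of all genes tested. Both tests use the 1% minus 0% difference of vessels 2 to 4, so this overlap is a description only. The count of 327 was 53 to 157 with any 0% or 1% array of vessels 2 to 4 left out, 74, 324 and 50 without the 2% array of vessel 2, 3 or 4, and 22 with the 8 arrays of 0% and 1% alone.

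DNER, DHRS2 and SERPINH1 entered the fits only through the concentration at which they were high in vessels 2 to 4. Their values here are therefore a description only. The test of a difference between the vessels rests on 1 array per concentration in vessel 1. Its spread is borrowed from vessels 2 to 4, so the test says nothing about how far repeated vessel 1 arrays would vary. Of the 34 named genes that passed it, 8 also passed with the 8 arrays of 0% and 1% alone: CXCL3, PTGS2, CXCL2, CHAC1, LIF, EPS8L3, RNA45SN5 and DNER. With each of the 9 arrays of vessels 2 to 4 left out in turn, 9 of the 34 passed every time and 3 never did (KCNE3, EREG and MUC20). CXCL3 was at 7.82 in the 0% array of vessel 1 and 10.37 in the 1% array, higher by 2.55 where vessels 2 to 4 fell by 1.66 (difference of -4.21 ± 0.32, SE, adjusted p = 0.00879). PTGS2 was at 5.22 and 7.54, higher by 2.32, where vessels 2 to 4 fell by 1.47 (-3.79 ± 0.47, adjusted p = 0.0181). CXCL2 was higher by 2.16 in vessel 1 and fell by 0.91 in vessels 2 to 4 (-3.07 ± 0.25, adjusted p = 0.00879). DDIT3, higher by 0.81 in vessels 2 to 4, was at 7.54 and 11.14 in vessel 1, higher by 3.6 (-2.8 ± 0.35, adjusted p = 0.0185, and 0.0619 with the 8 arrays). In the opposite sense, CCN2 was at 9.49 and 8.93 in vessel 1, a difference of -0.56 where vessels 2 to 4 had 1.86 (2.42 ± 0.32, adjusted p = 0.023, and 0.0598 with the 8 arrays), and DNER was at 3.69 and 2.98, both under 5. For the mitosis list, the median in vessel 1 was -0.23, for histones -0.05, and for chemokines and cytokines 0.77. The test did not pass for LGR5, at 9.55 and 8.21 in vessel 1 (adjusted p = 0.639), for H2BC21, at 5.68 and 6.82 (adjusted p = 0.621), or for CDKN1A, at 9.84 and 10.49 (adjusted p = 0.637).

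**Figure D5:**
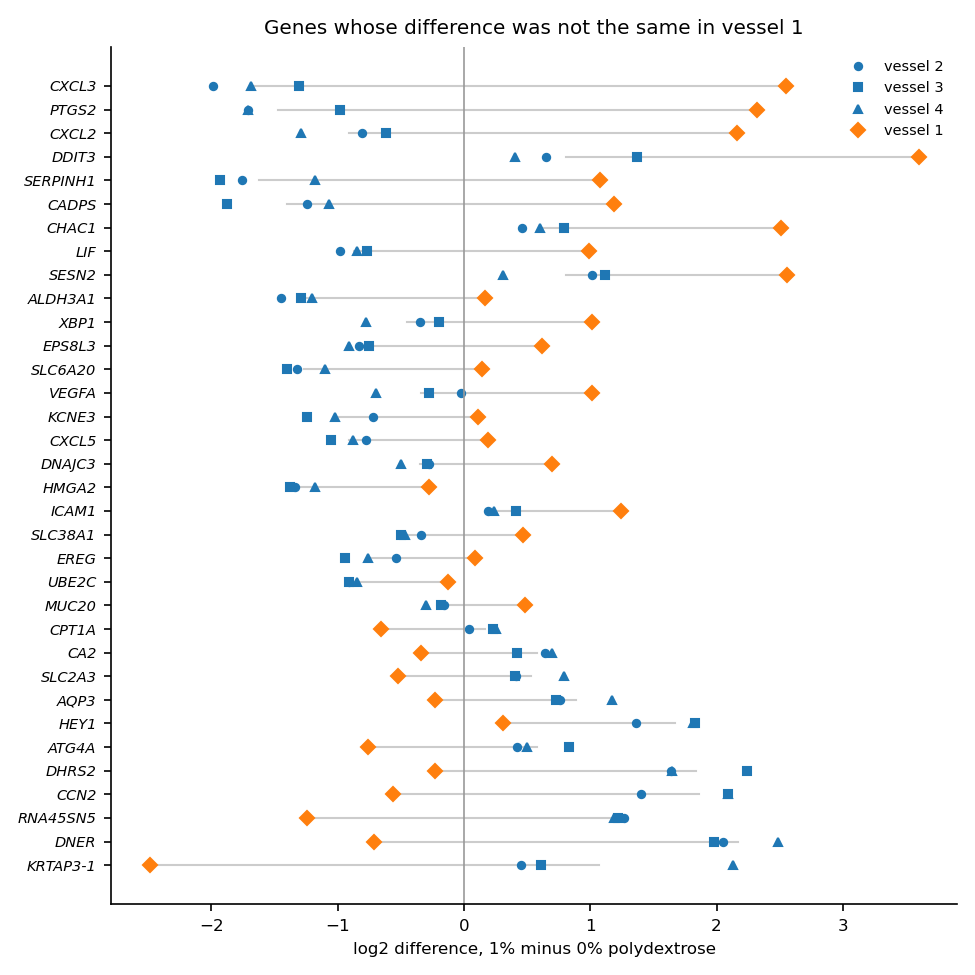
Log2 difference of 1% minus 0% polydextrose in vessel 1 (orange diamonds) and in vessels 2, 3 and 4 (blue symbols) for the 34 named genes whose difference between vessel 1 and the other vessels passed. CXCL3, PTGS2 and CXCL2 at the top lie above 0 in vessel 1 and below 0 in vessels 2 to 4; CCN2 and DNER near the bottom lie the other way.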

How the data were processed

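RNA of each culture was hybridised to 1 Affymetrix U133 Plus 2.0 array. Per the submitters' processing notes, the authors used GCRMA, and the deposited values are on the log2 scale (0.173 to 14.46, which fits no linear scale); the version is not given in the sources used here. Platform annotation gave 1 gene symbol to 41097 of 54675 probe sets, several to 1801 and none to 11777, leaving 19775 genes; probe sets with several or no symbols were not used. Promoters came from RefSeq (GRCh38.p14), matched by symbol.

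Differences were fitted with limma 3.58.1 (R 4.3.3) on the 9 arrays of vessels 2 to 4, with concentration and vessel as terms; the 3 arrays of 2% only shared the estimate of the spread (4 residual degrees of freedom, 7.41 after moderation; median residual SD 0.112). Benjamini-Hochberg adjustment ran over all 8627 genes, and precision is limited by how few arrays there are. Difference errors are SEs and p-values two-sided. Named genes are the 12 largest rises and falls that passed at log2 5 or more in all 6 arrays, the 5 largest bounds in each direction across log2 5, up to 4 members of each list in order of p, and CDKN1A, MYC, CCND1, PTGS2, IL33, LGR5, ATF3, FOS, CPT1A and PCNA. The comparison and the 55 gene lists, written from general knowledge, were chosen with earlier results of these data known. The tests were checked on simulated data. Alternatives covered the arrays, the block, the filter, the probe set choice, the scaling and the prior.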

Additional observations from a re-analysis of the deposited data

Results flagged for a closer look

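The effect of 1% polydextrose differed between vessel 1 and vessels 2 to 4 for 327 genes in the interaction test (limma, adjusted p under 0.05). The genes below are those of the named genes that passed it. Each value is the log2 difference of 1% minus 0% in vessels 2 to 4 less that in vessel 1, which had 1 array at each concentration. The fit assumes that the arrays of vessel 1 vary like the others, and with the 8 arrays of 0% and 1% alone 22 genes passed, among them 8 of the 34 named here. DNER, DHRS2 and SERPINH1 entered the fit only through the concentration at which they were high in vessels 2 to 4. Their values below are therefore a description only. No explanation was tested.

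Genes lower in vessels 2 to 4 and higher in vessel 1 included the chemokines CXCL3 (-4.21), CXCL2 (-3.07) and CXCL5 (-1.09), the cyclooxygenase PTGS2 (-3.79) and the cytokine LIF (-1.85). The same held for the collagen chaperone SERPINH1 (-2.7), for CADPS (-2.59), and for the unfolded protein response genes XBP1 (-1.46) and DNAJC3 (-1.05). It held for the aldehyde dehydrogenase ALDH3A1 (-1.49), the transporters SLC6A20 (-1.41) and SLC38A1 (-0.91), the channel subunit KCNE3 (-1.1), the microvillus protein EPS8L3 (-1.44) and the ligand EREG (-0.83). VEGFA (-1.35) and MUC20 (-0.69) had the same signs but did not pass in vessels 2 to 4. These groups go by sign alone. For CXCL5, ALDH3A1, SLC6A20, KCNE3 and EREG, the fitted differences in vessels 2 to 4 were -0.91, -1.31, -1.27, -0.99 and -0.75. The values above lie near these, so the vessel 1 arrays of those genes differed little.

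Genes higher in both places, but more so in vessel 1, were DDIT3 (-2.8), CHAC1 (-1.89), SESN2 (-1.74) and ICAM1 (-0.96), of which ICAM1 did not pass in vessels 2 to 4. Genes lower in both, but more so in vessels 2 to 4, were HMGA2 (-1.02) and UBE2C (-0.76).

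Genes higher in vessels 2 to 4 and lower in vessel 1 were the keratin-associated KRTAP3-1 (3.56), DNER (2.88), RNA45SN5 (2.47), CCN2 (2.42), DHRS2 (2.08), ATG4A (1.35), AQP3 (1.12), SLC2A3 (1.05), CA2 (0.92) and CPT1A (0.84), of which KRTAP3-1 and CPT1A did not pass in vessels 2 to 4. DNER and DHRS2 were under log2 5 in both arrays of vessel 1. HEY1 (1.35) was higher in both, more so in vessels 2 to 4, and also under log2 5 in vessel 1.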

How the results depend on the processing

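Of 8627 genes, 1131 passed (571 rose, 560 fell). With the 6 compared arrays alone 691 passed (322 and 369), with all 12 fermentation arrays 449 (246 and 203), with no filter on low values, where 19775 genes were tested, 691 (345 and 346), and against a minimum change of 1.5-fold 6 (3 and 3). With 1 array left out the count ran from 239 to 1206 (125 to 592 rose, 113 to 614 fell), the lowest without the 1% array of vessel 4; the arrays of 2% alone gave 772 to 1206. Of the genes on the lists, 240 passed. That count was 112 with 12 arrays, 156 with no filter, 5 against 1.5-fold and 74 to 249 with an array left out. Of the genes named by size or in any case, 37 passed. That count was 16 with 12 arrays, 5 against 1.5-fold and 27 to 36 with an array left out. The 327 genes that differed between vessel 1 and vessels 2 to 4 became 113 with no filter, 775 with an intensity trend and robust prior, 1630 with array weights, 22 with the 8 arrays of 0% and 1%, and 50 to 324 with an array left out. The cause was not tested. Deviations of same-numbered vessels at 0% and 1% correlated at 0.124, -0.307 and 0.071, so the numbers show no pairing, and 1316 genes passed without the replicate block. No call of a named gene changed sign under any alternative, and 2 of the 1131 genes had the opposite sign with 12 arrays and 2 with the mean of probe sets. Fluids of 1 simulation per concentration limit all of these results.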
